A study of Mus musculus with 14 samples.

Results

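The 35 genes described here encode serum response factor (SRF), genes of the kind it controls, and the actin cytoskeleton. They were chosen by name from the 24465 gene symbols of the RNA count files, and 173 of 40772 H3K27ac regions in the authors' deposited table carry the symbol of 1 of them. All libraries come from Y1, a single cell line derived from a mouse adrenocortical tumour, which was starved of serum for 48 h. The starved cells then received 10% fetal bovine serum for 5 h, either alone or together with 10 ng/ml of fibroblast growth factor 2 (FGF-2), so that serum is common to both groups and FGF-2 is the only labelled difference. Poly(A) RNA was measured in 3 libraries per group, and acetylation of histone H3 at lysine 27 (H3K27ac), which marks promoters and enhancers in use, in 2 per group, each with its input. The comparison therefore asks how FGF-2 changed these genes in cells already restimulated with serum, and starved cells were not analysed here.

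SRF binds a short A/T-rich element called the CArG box. It works with myocardin-related factors, which are held in the cytoplasm by unpolymerised actin and enter the nucleus as filaments grow, or with ternary complex factors of the ETS family, which are phosphorylated downstream of growth factors through the MAP kinase cascade. Many of its targets encode actin, its crosslinkers, its contractile regulators and focal adhesion proteins. In adrenocortical cells the cytoskeleton is known for the rounding that follows hormone stimulation and for its part in moving cholesterol to mitochondria.

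The CArG box was looked for as an SRF element in RefSeq promoter windows of GRCm38.p6, the build also called mm10, each running from 250 bases before to 50 after a gene's start. It reads as 2 C, 6 bases that are A or T, and 2 G, and was sought on both strands. Of 33 members with a window, 9 held at least 1 match (27.3%), beside 1.81% of 27025 genes in the table. The matches are printed because SRF acts through this element, and many of the genes were listed as targets of SRF. CArG letters are in capitals, with 10 bases on each side, 5′ to 3′ on the strand of the gene.
Srf, 62 bases before the start, chr17:46556205-46556234, minus strand: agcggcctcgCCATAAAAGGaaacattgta
Srf, 82 bases before the start, chr17:46556225-46556254, minus strand: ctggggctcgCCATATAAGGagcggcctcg
Actg1, 90 bases before the start, chr11:120348566-120348595, minus strand: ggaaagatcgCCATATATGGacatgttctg
Vcl, 227 bases before the start, chr14:20929161-20929190, plus strand: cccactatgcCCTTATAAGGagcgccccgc
Fhl2, 31 bases before the start, chr1:43163973-43164002, minus strand: gcgcgtgtgtCCTTATATGGtcaaatgact
Ldb3, 35 bases before the start, chr14:34588697-34588726, minus strand: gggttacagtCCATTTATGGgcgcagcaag
Filip1l, 62 bases before the start, chr16:57549170-57549199, plus strand: atgccgcgcgCCTTATAAGGctgagcggtg
Cnn2, 56 bases before the start, chr10:79988534-79988563, plus strand: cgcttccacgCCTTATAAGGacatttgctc
Rnd3, 100 bases before the start, chr2:51149192-51149221, minus strand: ctcccaggctCCATAAAAGGggaggaggcg
Myl9 held a further match, and Fhl2 had a second one before another of its starts. The letters of the element recur between genes. CCTTATAAGG stands in Vcl, Filip1l and Cnn2, and CCATAAAAGG in Srf and Rnd3.

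RNA libraries held 5625004 to 12696426 reads in genes, fewest in the third library of each group. Replicate libraries differed from each other beyond the noise of counting, and the labels do not say whether they come from separate cultures. The p-values set the group difference against the spread between these libraries, estimated with information from all genes. That spread may be technical. Levels are given as CPM, the counts scaled to library size with edgeR's TMM factors. Among adrenocortical markers, the defining factor Nr5a1 was at 74.3 ± 9.34 CPM with serum and 71.3 ± 9.80 CPM with FGF-2 (SD, n = 3 each), and Nr0b1 and Cyp21a1 were listed at 0. All 10 adrenocortical markers summed to 839 to 1085 CPM with serum and 2350 to 3831 CPM with FGF-2. That difference came from Star, which went from 165 ± 101 to 2296 ± 764 CPM, while 2 of the 6 tested markers, Cyp11a1 and Fdxr, fell. The 9 fibroblast and capsule markers summed to 2782 to 3503 CPM and 2029 to 2906 CPM, with Col1a2 and Dcn at 0, and the part of these lists in the results was not tested. Endothelial, blood and adrenal medulla markers summed to at most 10.5 CPM in any library. In bulk samples, fewer cells of a type and less RNA per cell cannot be told apart.

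Of the 35 genes, 30 had enough reads to be tested. With FGF-2, 10 rose and 6 fell by edgeR's quasi-likelihood test with Benjamini-Hochberg adjustment over 10374 genes at 0.05, and 14 were not called. Across all genes tested, 22.1% were called higher and 24.2% lower. The lower share among the tested members (20%) was near the background, and with TMM scaling the higher share (33.3%) was above it. With library totals alone as the scaling, 3 of the 30 were higher and 11 lower, beside 1035 and 4675 of the 10374 genes. The members were chosen with earlier results of these data known, and the difference in shares was not tested. The median log2 change of the tested members was 0.19, beside -0.023 for all genes. The rises were moderate, with log2 values from 0.38 to 1.35. They lay among crosslinker and adhesion genes and at Cfl1, Pfn1, Tagln2 and Cnn3, with Pdlim7 of the LIM and PDZ scaffolds. The falls reached -3.50. They were Ldb3 and Filip1l of the LIM and PDZ scaffold list, the calponin genes Cnn1 and Cnn2, and Flna and Rhob. All 10 risen and all 6 fallen genes had no overlap between the libraries of the groups, as did Actg1 and Myl12a among the uncalled, and 57.5% of all genes tested showed the same.

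**Figure D1:**
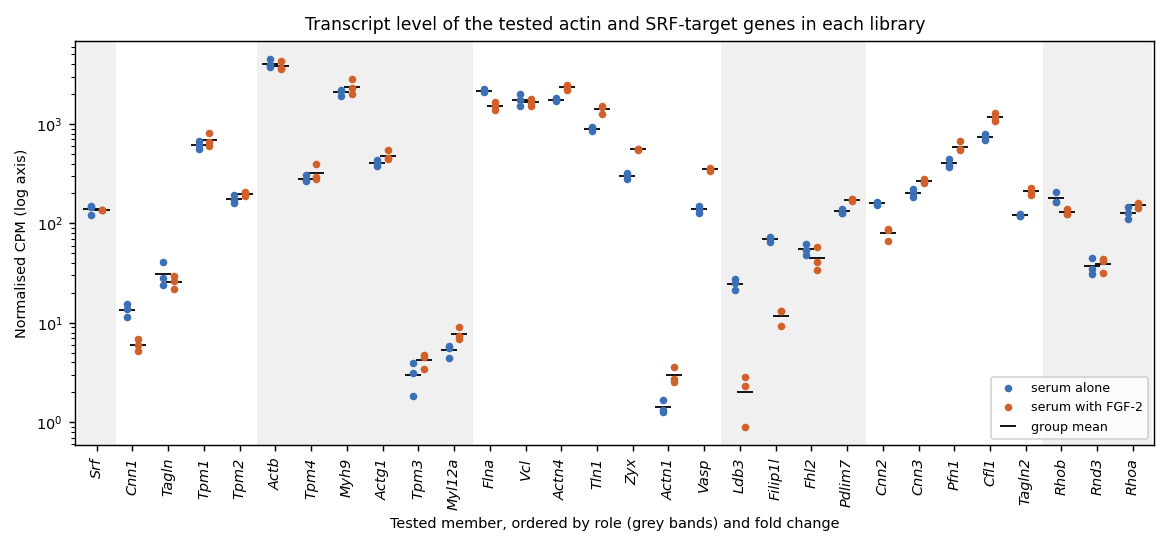
Normalised CPM on a log axis for the 30 tested members in each of 3 libraries with serum alone (blue) and 3 with serum and FGF-2 (orange), with group means as bars and alternating grey bands for the roles. The points of Ldb3 and Filip1l stand far apart between groups, while those of Srf, Actb and Vcl overlap.

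Srf itself, at chr17:46546838-46558267, did not pass the test. Its transcript was at 147, 122 and 148 CPM in the serum libraries and at 137 CPM in each of the 3 FGF-2 libraries. The FGF-2 values lay inside the range of the serum values. The log2 change was -0.02 ± 0.11 (SE), with an adjusted p of 0.894 in edgeR, and it was called lower when scaled by library totals alone.

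The smooth muscle type contractile genes encode calponin, caldesmon, transgelin, tropomyosins, a muscle type actin and its myosin light chain. None of the 4 tested rose and 1, Cnn1, fell. At an unadjusted p under 0.05 edgeR had 0 higher and 1 lower, and DESeq2 and limma-voom also called 0 higher. Cnn1, calponin 1, an actin-binding inhibitor of myosin ATPase, was at 15.6, 11.4 and 13.8 CPM with serum and at 5.17, 6.0 and 6.88 CPM with FGF-2. Every FGF-2 library lay below every serum library. Its log2 change was -1.19 ± 0.19 (edgeR adjusted p = 0.000825), which leaves 0.438 of the serum level.

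Tagln, transgelin, which bundles actin filaments, was at 40.9, 28.2 and 24.2 CPM with serum and at 26.6, 29.4 and 21.9 CPM with FGF-2. The groups overlapped, and the first serum library was the highest. Its log2 change of -0.26 ± 0.20 did not pass (edgeR adjusted p = 0.298). Tpm1 and Tpm2, tropomyosins that lie along the filament and gate myosin access, had log2 changes of 0.16 ± 0.14 and 0.17 ± 0.11 and were not called either. Acta2, smooth muscle α-actin, had 1 read in the third FGF-2 library and 0 in the other 5. Myl9, the regulatory light chain of smooth muscle myosin, had 5, 0 and 0 reads with serum and 2, 1 and 0 with FGF-2.

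Cald1, caldesmon, was listed at 0 in all 6 libraries, although its promoter region carried H3K27ac. Rac1, a GTPase that every cell uses, was listed at 0 in all 6 as well. Among 3513 genes with a promoter region of at least 200 signal units, 529 (15.1%) were not tested for lack of reads and 229 of them were listed at 0 throughout. Caldesmon and Arpc2 are the members among those 529, of 21 members with such a promoter. A listed 0 in these files is therefore given as listed, and how the reads of such genes were counted is not given in the sources used here.

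Cytoplasmic actins, nonmuscle myosin and nonmuscle tropomyosins form the filaments of most cells. None of the 6 tested was called in either direction. At an unadjusted p under 0.05 edgeR had 1 higher (Myl12a) and 0 lower, and DESeq2 and limma-voom called 0. Actb, β-actin, was at 4488, 3899 and 3762 CPM with serum and at 3666, 3582 and 4315 CPM with FGF-2. Actg1, γ-actin, was at 430, 379 and 402 CPM with serum and at 448, 450 and 548 CPM with FGF-2. The β-actin groups overlapped and the γ-actin groups did not. Their log2 changes were -0.07 ± 0.15 and 0.25 ± 0.12, with edgeR adjusted p of 0.728 and 0.116. Coding sequences of the actins are alike, so some reads may be split between them.

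Myh9, the heavy chain of nonmuscle myosin IIA, was at 1926, 2140 and 2178 CPM with serum and at 2834, 2315 and 1989 CPM with FGF-2. The third FGF-2 library lay inside the serum range. Its log2 change was 0.19 ± 0.16. Myl12a, a nonmuscle regulatory light chain with a near-identical neighbour in Myl12b, changed by 0.51 ± 0.20 at 4.48 to 9.05 CPM (edgeR adjusted p = 0.0655). Tpm3 and Tpm4 had log2 values of 0.50 ± 0.29 and 0.19 ± 0.15. Myh10, the IIB heavy chain, had at most 3 reads in any library and was not tested.

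The crosslinkers and focal adhesion genes held 5 of the 10 rises. These proteins join filaments to one another and to integrins. Of 7 tested, 5 rose, Flna fell and Vcl was not called, while 3 rose without serum library 1 or without serum library 2, and 2 rose and 2 fell with library totals alone as the scaling. The largest rise was that of Vasp (chr7:19256929-19271854), whose product sits at filament barbed ends and speeds their elongation. It was at 139, 128 and 149 CPM with serum and at 340, 364 and 355 CPM with FGF-2, and the lowest FGF-2 library was over the highest serum library by a wide margin. The log2 change was 1.35 ± 0.11, a 2.55-fold rise (edgeR adjusted p = 1.94e-05).

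Zyx, zyxin, a LIM protein that recruits Ena/VASP proteins to stressed filaments, was at 320, 279 and 305 CPM with serum and at 552, 556 and 563 CPM with FGF-2. Tln1, talin 1, which activates integrins and ties them to actin, was at 845, 927 and 908 CPM with serum and at 1468, 1499 and 1268 CPM with FGF-2. Neither gene's groups overlapped. Their log2 changes were 0.89 ± 0.11 and 0.66 ± 0.13, with edgeR adjusted p of 0.000194 and 0.00254.

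Both nonmuscle α-actinins rose, on very different numbers of reads. Actn1 had 14, 12 and 10 reads with serum and 26, 31 and 20 with FGF-2, or 1.28 to 1.66 CPM against 2.53 to 3.62 CPM. Its log2 change was 1.04 ± 0.30 (edgeR adjusted p = 0.0186), and the call was lost without serum library 1 or 2, where the adjusted p was 0.0628 and 0.0760. In the authors' deposited table of RNA results Actn1 was not called (DESeq2 adjusted p = 0.0583). The Actn1 promoter region carried H3K27ac signals of 489 and 415 with serum and 409 and 397 with FGF-2. As for Cald1 and Arpc2, how its reads were counted is not given, so the low level is given as listed. Actn4 was at 1713, 1732 and 1808 CPM with serum and at 2377, 2474 and 2202 CPM with FGF-2. Those groups stood apart, and the log2 change was 0.43 ± 0.13 (edgeR adjusted p = 0.0233). Actn4 was no longer called when the first or second library of either group was left out, nor with a replicate block (edgeR adjusted p = 0.0502) or upper-quartile scaling (0.0975).

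Flna, filamin A, which crosslinks filaments into gels, went the other way. It was at 2082, 2164 and 2236 CPM with serum and at 1651, 1517 and 1366 CPM with FGF-2. Every FGF-2 library was below the serum libraries, and the gene fell by 0.52 on the log2 scale (SE 0.14, edgeR adjusted p = 0.0114). Without serum library 2 the adjusted p was 0.0547. Vcl, vinculin, which strengthens the talin link, was at 1520, 1745 and 1984 CPM with serum and at 1777, 1642 and 1517 CPM with FGF-2. Those ranges overlapped almost wholly, and the log2 change was -0.09 ± 0.15.

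**Figure D2:**
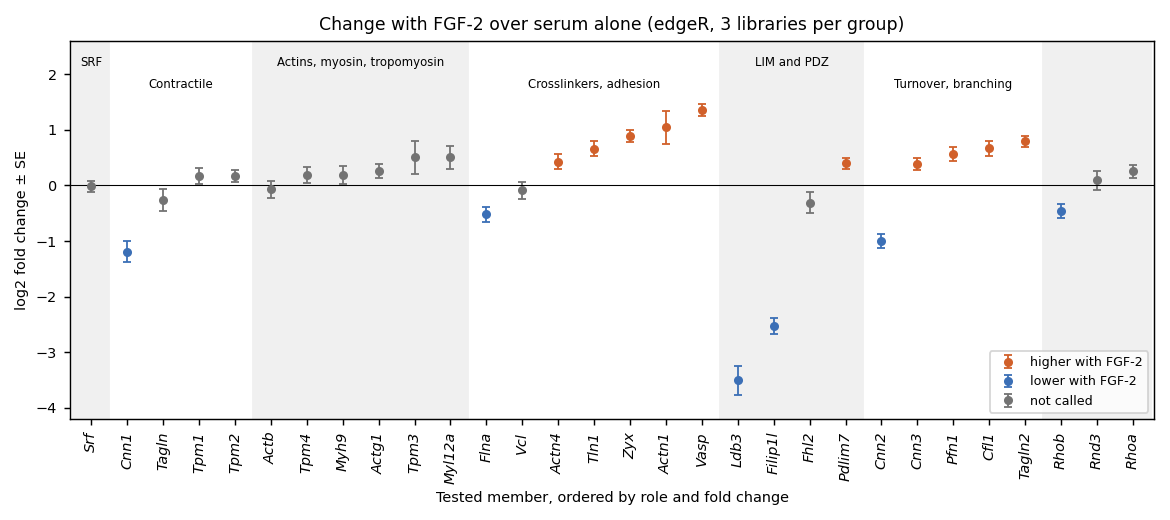
Log2 fold change (FGF-2 over serum alone, edgeR) with its SE for the 30 tested members in order of role, coloured by call, all with TMM scaling, with Rhob, Rnd3 and Rhoa in the last, unlabelled band. Rises lie in the crosslinker and turnover bands, with Pdlim7 in the LIM and PDZ band, and reach 1.35 (Vasp), and the deepest falls are Ldb3 at -3.50 and Filip1l at -2.53.

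Among the LIM and PDZ scaffold genes 2 fell, 1 rose and 1 was not called, and the rise (Pdlim7) was lost when scaled by library totals alone or by upper quartiles. Ldb3 (chr14:34526699-34590314), also known as Cypher or ZASP, a PDZ and LIM protein that binds α-actinin at the Z-discs of striated muscle, was at 25.2, 21.5 and 27.4 CPM with serum. With FGF-2 it was at 2.83, 2.29 and 0.905 CPM. No FGF-2 library came near the serum range, and 0.0882 of the serum level remained. The log2 change was -3.50 ± 0.26 (edgeR adjusted p = 1.47e-05). It stayed between -3.78 and -3.26 with any 1 library left out.

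Filip1l (chr16:57353277-57572804), which resembles a protein that binds filamin A, was at 72.9, 70.5 and 65.2 CPM with serum and at 13.2, 13.1 and 9.23 CPM with FGF-2. The gap between groups was again far wider than the spread within them. It fell by 2.53 on the log2 scale (SE 0.14, edgeR adjusted p = 5.77e-06). Pdlim7, the PDZ and LIM protein enigma, was at 128, 127 and 141 CPM with serum and at 170, 176 and 175 CPM with FGF-2. Its rise of 0.39 ± 0.10 on the log2 scale (edgeR adjusted p = 0.00814) was just lost without serum library 2 (adjusted p = 0.0505). Fhl2, a LIM-only protein that can bind SRF, was at 48.5, 54.1 and 62.1 CPM with serum and at 41.1, 34.4 and 58.1 CPM with FGF-2. The third FGF-2 library overlapped the serum range. Its log2 change of -0.31 ± 0.19 was not called, and it became -0.53 and passed the test when that library was left out.

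The filament turnover and branching list also holds the transgelin gene Tagln2 and the calponin genes Cnn2 and Cnn3. All 5 of its tested genes were called, 4 higher and 1 lower, with 1 still higher when scaled by library totals alone. Cfl1, cofilin, which severs filaments, was at 798, 733 and 696 CPM with serum and at 1163, 1078 and 1294 CPM with FGF-2. Pfn1, profilin, which loads monomers for growth, was at 446, 385 and 372 CPM with serum and at 560, 547 and 672 CPM with FGF-2. Tagln2, a transgelin of nonmuscle cells, was at 118, 119 and 126 CPM with serum and at 208, 195 and 227 CPM with FGF-2. None of the 3 overlapped between groups. Their log2 changes were 0.67 ± 0.13, 0.56 ± 0.13 and 0.79 ± 0.10, with edgeR adjusted p of 0.00247, 0.00614 and 0.000251.

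The 3 calponins moved in different directions. Cnn2, calponin 2, was at 152, 163 and 161 CPM with serum and at 87.6, 66.3 and 85.1 CPM with FGF-2. Cnn3, calponin 3, was at 220, 204 and 186 CPM with serum and at 263, 256 and 277 CPM with FGF-2. Calponin 2 therefore fell together with calponin 1, to 0.501 of the serum level (log2 -0.996 ± 0.124, edgeR adjusted p = 0.000204), and calponin 3 rose by 0.38 ± 0.11 (adjusted p = 0.0152). The Cnn3 call was lost without serum library 2 (edgeR adjusted p = 0.0591) and with upper-quartile scaling (0.0829). Arpc2, a subunit of the Arp2/3 complex that nucleates branches, had 3, 3 and 6 reads with serum and 24, 38 and 7 with FGF-2. The low-count filter removed it. With no such filter its log2 change was 2.34 ± 0.51 (edgeR adjusted p = 0.000565), on 12 reads in all with serum and 69 with FGF-2.

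The remaining members were Rhob, Rhoa and Rnd3. Rhob, an early-response GTPase of endosomes, was at 209, 163 and 166 CPM with serum and at 141, 123 and 126 CPM with FGF-2. The groups did not overlap, the first serum library was the highest, and the log2 change was -0.47 ± 0.12 (edgeR adjusted p = 0.0122). Without serum library 1 the adjusted p was 0.0532. Rhoa, which drives stress fibre assembly, was at 146, 126 and 112 CPM with serum and at 156, 144 and 159 CPM with FGF-2. Rnd3 was at 35.2, 31.0 and 45.1 CPM with serum and at 32.0, 42.4 and 44.2 CPM with FGF-2. Both pairs of groups overlapped, with log2 changes of 0.25 ± 0.12 and 0.09 ± 0.17.

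The scale matters for the small changes. TMM puts the median of all genes at -0.023, and scaling by library totals alone puts it at -0.36. With totals alone, 3 members were higher (Vasp, Zyx and Tagln2) and 11 lower, the added ones being Srf, Tagln, Actb, Vcl and Fhl2, and the share of higher genes among all called fell from 47.7% to 18.1%. With upper-quartile scaling that share was 32.7%, and 7 members were higher and 6 lower. The 6 members that fell with TMM were lower under each of these scalings.

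The other genes of actin control were counted in 6 lists, which hold 132 symbols, 109 of them tested, and 5 of the lists are described. Of the 109 tested genes of all 6 lists, 35 rose and 28 fell (32.1% and 25.7%, beside 22.1% and 24.2% of all genes). Their median log2 change was 0.10. With library totals alone the counts were 19 and 47. Among 7 SRF cofactors 4 rose and 2 fell, with 2 higher when scaled by library totals alone. Elk3, a ternary complex factor of the ETS family, went from 52.1 ± 20.7 to 216 ± 45.6 CPM (log2 2.06 ± 0.28, edgeR adjusted p = 0.00106). Mkl1 (now Mrtfa), a myocardin-related factor, rose by 0.97 ± 0.12, and its relative Mkl2 (now Mrtfb) fell by 0.51 on the log2 scale. Mef2d, a MADS box factor, fell by 0.43. The Mkl2 call was lost without serum library 1 or 2. That of Mef2d was lost with DESeq2 size factors and when any serum library, or FGF-2 library 2 or 3, was left out.

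The Arp2/3, WAVE and nucleation list went mostly one way, with 9 of 17 higher and 1 lower. Its largest rise was that of the nucleator Spire1 (1.40 ± 0.18), followed by the branch-binding cortactin gene Cttn (0.89 ± 0.17), and the formin Daam1 fell by 0.88. Some of the 9 rises were small and fragile. Those of the Arp2/3 genes Actr2 (0.30), Arpc1a (0.31) and Actr3 (0.40) did not stay called once serum library 2 was dropped. Actr2 and Arpc1a also failed the test on dropping any other serum library or the first FGF-2 library, and Actr2 on dropping the third. Without serum library 3 a second gene was lower, and with library totals alone 3 were higher and 4 lower.

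Among 15 genes of monomer binding, capping and severing 4 rose and 2 fell, against 2 and 5 when scaled by library totals alone. Ssh1, a phosphatase that activates cofilin, rose by 1.71 ± 0.19, and Capg, a capping protein, by 1.00 ± 0.14. The falls of Pfn2 (-0.37 ± 0.13) and Coro1b (-0.31 ± 0.12) were both lost in DESeq2 and when the first or second library of either group was left out, and that of Coro1b without FGF-2 library 3 too. Of 22 other focal adhesion and LIM genes 6 rose and 7 fell, with 13 lower when scaled by library totals alone. Tes and Pxn (paxillin), both adhesion proteins, rose by 1.61 ± 0.13 and 1.5 ± 0.11, and Fhl1 and Tln2 fell by 1.72 and 1.00 on the log2 scale.

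The 23 other SRF-type contractile and crosslinking genes split into 8 higher and 7 lower. Smtn, smoothelin, went from 125 ± 15.6 to 709 ± 97.6 CPM (log2 2.5 ± 0.15, edgeR adjusted p = 5.91e-06), and the filamin gene Flnc rose by 1.80 ± 0.41, a call that was lost with no low-count filter. Lmod1, leiomodin, which nucleates actin in smooth muscle, had 96 reads in all with serum and 5 in all with FGF-2. Its log2 change of -4.23 ranged from -5.16 to -3.50 with 1 library left out, and leaving out FGF-2 library 2 or 3 moved it by over 1.5 times. Synpo2, a partner of α-actinin, fell by 2.44. The 7 defining smooth muscle markers summed to 151 to 168 CPM with serum and 616 to 799 CPM with FGF-2, most of it Smtn, with Myocd at 0 throughout. Of the 4 tested, 1 rose and 2 fell, and their part in the results was not tested.

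**Figure D3:**
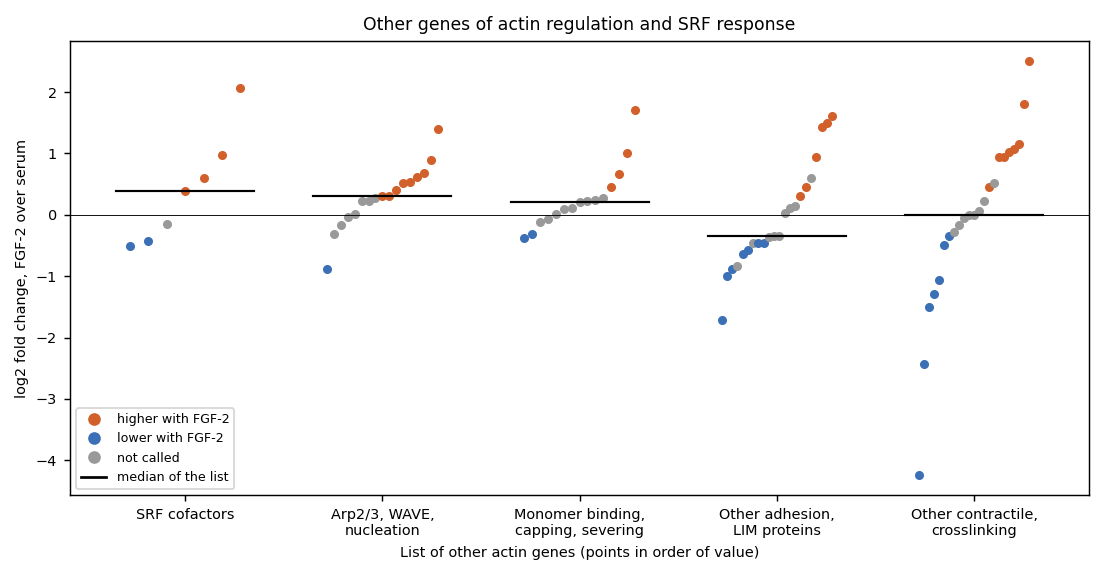
Log2 fold change (FGF-2 over serum alone, edgeR) of each tested gene in 5 lists of other actin genes, points in order of value and coloured by call, with the list's median as a line. Most lists hold both rises and falls, and the Arp2/3 and WAVE list has 9 of its 17 genes called higher and 1 lower (3 and 4 when scaled by library totals alone).

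H3K27ac regions were called by the authors and assigned to the gene with the nearest start, so a symbol does not show which gene a region acts on. Signals are normalised reads per region and library. In the authors' deposited table the 173 regions fall under 30 of the 35 symbols, and 13 were higher and 6 lower with FGF-2 at a false discovery rate of 0.05. Over all regions, 8.33% were higher and 1.64% lower in the authors' deposited table. The median log2 fold in the authors' deposited table was 0.08 for members and 0.11 for all regions. Of the 173, 101 had a called peak in every library. Many member regions that were not called also had no overlap between the groups of 2 libraries. The share of such regions over all regions was not counted.

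The calls lay away from promoters, as did 2999 of 3398 higher and 559 of 670 lower calls over all regions. In the authors' deposited table none of the 31 member regions within 1 kb of a start (25 genes) was called, beside 2.02% higher and 0.681% lower of all such regions. With shares that low, 0 of 31 does not set the members apart. At an unadjusted p under 0.05 that table has 2 of them, Actn4 higher and Filip1l lower. The limma fit of log2 signal called 0, and edgeR on whole reads recovered from the signals called 2, those of Actb and Filip1l. The 130 member regions outside the annotation's promoter class, which reaches 3 kb from a start, held all 13 higher and 6 lower calls of the authors' deposited table, beside 11.4% and 2.12% of all regions of that kind.

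Promoter signal is given for Filip1l, Ldb3 and Cnn2, which fell in RNA and hold a CArG match, because it was measured apart from the RNA. Cnn1, which fell too, has no region within 1 kb of its start. The Filip1l promoter region was at 342 and 244 with serum and at 185 and 218 with FGF-2, and the deposited log2 fold in the authors' deposited table was -0.54 (false discovery rate 0.144). The Ldb3 promoter region was at 50.7 and 29.3 with serum and 16.2 and 37.0 with FGF-2. The CArG match of Ldb3 lies outside that region, which had no called peak in FGF-2 library 1. The Cnn2 promoter region was at 453 and 370 with serum and 383 and 405 with FGF-2. The Filip1l groups did not overlap and those of the other promoters did. At Srf, the promoter region that covers both CArG matches was at 424 and 299 with serum and 294 and 388 with FGF-2, which also overlap. Of 11 CArG matches in the members, 7 overlapped a region of the authors' deposited table, that of Vcl only in part, and none of those regions was called there.

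**Figure D4:**
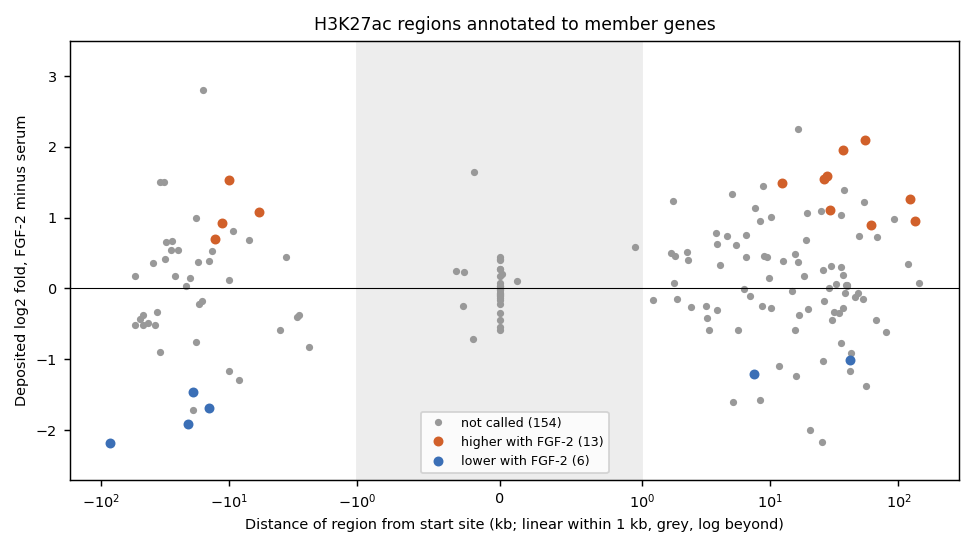
Log2 fold in the authors' deposited table (FGF-2 minus serum) of the 173 member regions against distance from the start site in kb, linear within 1 kb (grey) and logarithmic beyond. The 13 higher and 6 lower regions all lie outside the grey band.

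Actn1 had 4 of the 13 higher regions, all in its first intron of 20 and 26.1 to 36.8 kb from the start. The region at chr12:80227452-80230933 had signals of 134 and 145 with serum and 323 and 280 with FGF-2. The region at chr12:80222694-80223585 had 12.9 and 20.1 with serum and 72.3 and 56.0 with FGF-2. In both, every FGF-2 library was above the serum libraries. Their log2 folds in the authors' deposited table were 1.11 and 1.96, with false discovery rates of 4.08e-05 and 0.000868. The Actn1 promoter region had a log2 fold of -0.16 in the authors' deposited table and was not called. Of the members called higher in RNA by edgeR, Actn1 is the only 1 with a called region.

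Cald1, whose RNA was listed at 0, carried 3 higher and 3 lower regions. Those at chr6:34733572-34736937 (intron 3 of 3) and chr6:34747268-34751524 (exon 2 of 4) were higher. The first had signals of 188 and 174 with serum and 384 and 319 with FGF-2. The second had 356 and 362 with serum and 773 and 566 with FGF-2. Neither overlapped, and the log2 folds in the authors' deposited table were 0.96 and 0.90 (false discovery rates 0.000320 and 0.000373). Its 3 lower regions had log2 folds of -1.69, -1.01 and -1.46 in the authors' deposited table. The gene thus held changes in both directions.

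Vcl and Fhl2, not called in RNA, each had distal changes. An intron 4 region of Vcl (chr14:20984634-20985518), 55.2 kb from the start, was at 8.29 and 14.2 with serum and at 50.4 and 46.0 with FGF-2. A region 21.0 kb before Fhl2 (chr1:43217721-43219090) was at 82.0 and 71.9 with serum and at 22.8 and 18.0 with FGF-2. In each the groups stood well apart. Their log2 folds in the authors' deposited table were 2.10 and -1.91, with false discovery rates of 0.00246 and 0.000247. A second Fhl2 region, 84.4 kb before the start, was lower by -2.19 in the authors' deposited table.

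Rhob and Myh9 had higher regions before their starts. A region at chr12:8509954-8511052, 9.97 kb before Rhob, was at 27.6 and 25.9 with serum and at 89.4 and 65.0 with FGF-2. A region at chr15:77847988-77850232, 5.81 kb before Myh9, was at 82.9 and 61.8 with serum and at 167 and 138 with FGF-2. No library of one group reached the other. The log2 folds in the authors' deposited table were 1.53 and 1.08 (false discovery rates 0.00325 and 0.00380). Rhob RNA fell, opposite to both of its called regions, and Myh9 RNA was not called. The second Rhob region, 11.3 kb before the start, had a log2 fold of 0.92 in the authors' deposited table (false discovery rate 0.0476). It was not called by limma with a replicate block. Another Rhob region, 55.6 kb from the start, was lower like the RNA but just missed the call there (log2 fold -1.38, false discovery rate 0.0529). Tpm1 had 1 higher region (log2 fold 1.49) and Rnd3 1 lower (-1.21) in the authors' deposited table.

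The first FGF-2 H3K27ac library weighs on these calls. With limma on log2(signal + 1), which called all 19 of the authors' called member regions in the same direction, 3 of the 19 were still called without FGF-2 library 1. Without FGF-2 library 2 there were 11, without serum library 1 there were 16, and without serum library 2 all 19. In each such fit the lone library of a group is assumed to vary like the other group. The 3 regions called in every one of these fits were the second Actn1 region above, the Vcl region and the nearer Fhl2 region.

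**Figure D5:**
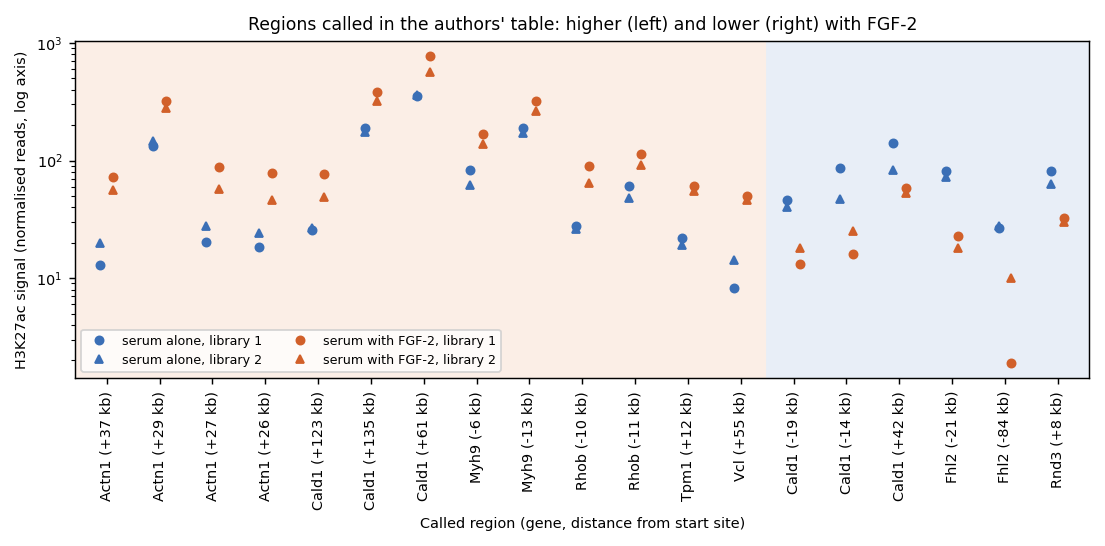
H3K27ac signal (normalised reads, log axis) in 2 serum and 2 FGF-2 libraries at the 13 member regions called higher (left) and 6 called lower (right) in the authors' deposited table, each named by gene and distance from the start. No called region has overlapping groups, which also holds for many uncalled member regions. The first FGF-2 library is the highest library in each of the 13 higher regions.

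Acta2, Tagln, Actg1, Myh10 and Tln1 have no region under their own symbol. Within 3 kb of the gene, Actg1 overlaps 2 regions that carry Mir6935 and Tln1 overlaps 1 that carries Creb3, while the other 3 genes overlap none. The Actg1 promoter, with its CArG match, lies in the larger of these, which was at 971 and 772 with serum and 719 and 807 with FGF-2 and has a log2 fold of -0.19 in the authors' deposited table. The Tln1 region was at 930 and 734 with serum and 820 and 898 with FGF-2. Neither pair of groups stood apart.

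RNA calls were also counted by CArG match. Of 8 tested members with a match, 0 were higher and 3 lower (Ldb3, Filip1l and Cnn2), and edgeR had 0 higher at an unadjusted p under 0.05. Of 20 tested members with a window and no match, 10 were higher and 3 lower. Actb and Tagln, tested and not called, had no window and stand in neither count. Among all tested genes, 132 held a match, and 25% of them were higher and 23.5% lower, near the shares of all genes. The match is a description of letters and does not show that SRF binds there.

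Other motifs were sought in the same windows, on both strands, and no match of one overlapped a match of another in the member windows. AP-1 (TGANTCA) was found in 5 of 33 members and 8.97% of all genes. TEAD (GGAATG) was found in 11 members and 16.6% of all genes. ETS (CCGGAAG) was found in 3 members and 9.93% of all genes. The other actin lists held a CArG match in 8 of 101 genes with a window, among them Actc1, Fhl1, Fermt2 and Myo1e.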

How the data were processed

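The members and gene lists were chosen with earlier results of these data known. For RNA, the authors deposited unnormalised read counts, 1 per symbol. The submitters' processing notes name STAR 2.5.2a, HTSeq 0.10.0, MACS2 2.2.6, DiffBind, ChIPseeker, DESeq2 and the build mm10. Neither annotation nor strand setting is given in the sources used here, which leaves overlapping, antisense and near-identical genes uncertain. Unassigned and ambiguous reads (37.0% to 43.2% of each library) were left out. A count of 0 allows up to 0.265 to 0.543 CPM (3 counts), for counting error only.

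The RNA test was edgeR 4.0.16 in R 4.3.3 (TMM, filterByExpr, robust quasi-likelihood, Benjamini-Hochberg at 0.05). SE was taken as the size of the log2 change divided by the root of the F statistic. The test was tried on simulated data. Alternatives were DESeq2 1.42.0, limma-voom, other scalings, no filter, a replicate block and leaving out each library. The authors' deposited DESeq2 table gives a base mean signal, log2 fold changes, a Wald score and p-values, per the file headers. It calls 10 members higher and 6 lower, with Arpc2 among the higher and Actn1 not called.

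The authors' deposited region table gives a signal per library, log2 folds, p-values and false discovery rates, used as deposited. All signals were whole reads within 0.05 reads after division by 1 factor per library. MACS2 peaks were called per library, with a fold ratio to background, −log10 p and −log10 q, per the file headers. Fragments per ChIP library were 11840994 to 14156846. Input fragments were 12241177 to 110273836, the most for serum library 2. Alternatives were limma 3.58.1 and edgeR on those reads. Promoter regions are those within 1 kb of a start, and regions outside promoters leave out the whole promoter class of the annotation, which reaches 3 kb.

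Named genes were 7 fixed members, the largest called members each way, members with a called region, and up to 2 called genes each way in each other list. Symbols were placed by a RefSeq table of GRCm38.p6. Sequences are from RefSeq promoter windows, which matched 33 of 35 members (not Actb or Tagln). The results of 1 list of other actin genes are not reported here, though its genes are in the total over the lists.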

Additional observations from a re-analysis of the deposited data

How the results depend on the processing

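Member counts of 10 higher and 6 lower in RNA were within 1.5 times of these values under DESeq2, limma-voom, DESeq2 size factors, upper-quartile scaling, no low-count filter, a false discovery rate of 0.01 and each left-out library (7 to 11 higher, 4 to 7 lower). Library totals alone gave 3 and 11, and 19 and 47 for the other lists. That scaling also reversed Tpm1 (-0.18), Tpm2 (-0.17), Actg1 (-0.088), Myh9 (-0.14), Tpm4 (-0.16), Rhoa (-0.091) and Rnd3 (-0.24), and upper-quartile scaling reversed Rnd3 (-0.047). None of the 7 was called with TMM. With 1 library left out, Srf ranged from -0.11 to 0.028, Actb from -0.16 to 0.0028, Vcl from -0.19 to 0.013 and Rnd3 from -0.027 to 0.25, all uncalled.

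Deviations from the group means correlated between same-numbered RNA libraries with r of -0.13, 0.054 and 0.39. Only serum library 3 correlated best with its own number. Serum library 1 correlated best with FGF-2 library 2 (0.34), and serum library 2 with FGF-2 library 1 (0.43). With 3 libraries per group, these values do not settle whether or how the libraries are paired. A replicate block gave 9 higher and 6 lower members, and 38 and 31 in the other lists.

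For the 13 higher and 6 lower member regions, limma with pseudocounts of 1 and 10 gave 11 lower each, edgeR on recovered reads gave 16 lower, and a false discovery rate of 0.01 left 8 and 2. Promoter regions alone gave 0 and 0. Leaving out a library gave 2 to 28 higher and 3 to 19 lower. The replicate block gave 12 and 8. With 2 libraries per group, both pairs have the same r (-0.22) by construction, so it is 1 value. A crossed pairing, chosen after seeing the data, gave 19 and 13. Requiring peaks to cover 50% of a region reduced 101 regions with a peak in every library to 62. The cause of these differences was not tested. Low counts limit Actn1 and the 5 untested members, and 2 libraries per group limit the regions.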
